A study of Mus musculus with 4 samples.

Results

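Metalloproteinases are zinc-dependent proteases that cut the extracellular matrix and shed proteins from cell surfaces, and the tissue inhibitors of metalloproteinases (TIMPs) block them. They were examined in bone marrow cells carrying the nestin reporter of mice with a myeloproliferative neoplasm (MPN) and of a control mouse. A gene was a member when its single symbol in the array's annotation began with Mmp, Timp, Adam, Adamts or Adamtsl followed by a digit, which gave 83 genes of the 19938 measured. They comprised 22 matrix metalloproteinases (MMPs), 4 TIMPs, 34 ADAM genes, 18 ADAMTS genes and 5 ADAMTS-like genes. Where a gene had more than 1 probe set, that with the greatest average signal on the 4 arrays stood for it. The 3 MPN mice were Nes-gfp mice that had received Mx1-cre;JAK2-V617F cells, and the 1 control mouse was a Nes-gfp mouse that had received control cells. All were labelled C57BL/6, and cells bearing the reporter but not CD45, CD31 or Ter119 were taken 10 weeks after transplantation. In the transplanted cells the Mx1 promoter drives Cre, which is active after induction in blood cells and in other tissues. In the Nes-gfp mice the nestin promoter drives the green fluorescent protein used for the sort. Whether the control cells carried Mx1-cre, and how the recipients were prepared, is not given in the sources used here.

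The MMPs are made as inactive precursors whose catalytic zinc is blocked until the propeptide is removed. Collagenases cut fibrillar collagen, gelatinases degrade the unfolded chains, and membrane-type MMPs act at the cell surface, where Mmp14 activates the precursor of Mmp2. ADAMs release the outer parts of membrane proteins such as tumour necrosis factor and Notch ligands, and ADAMTS enzymes process procollagen and proteoglycans. In marrow, fibroblast-like stromal cells and osteoblasts make Mmp2, Mmp13, Mmp14 and TIMPs, whereas neutrophils store Mmp8, Mmp9 and Mmp25 in granules.

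Values are on a log2 scale, so a difference of 1 is 2-fold. A background limit of 5.21 came from 1190 odorant and pheromone receptor genes (Olfr, Vmn1r and Vmn2r), taken to be silent in marrow. The median difference of all genes, MPN minus control, was 0.18, and each difference should be read against such a shift. It varied with the signal, at 0.26 for the receptor genes and 0.0785 for genes above the limit. The sorted cells went against their labels in part. Ptprc, which encodes CD45, gave 10.16, 9.46 and 10.40 in the MPN mice, against 7.07 in the control mouse. Of 10 pan-leukocyte markers, 9 were at least 2-fold higher on each MPN array, and the mean of the list was 9.34 to 10.26 on the MPN arrays against 7.19 on the control array. Of 13 neutrophil markers, 11 were 2-fold higher on each MPN array (list mean 9.83 to 10.89, against 7.61 in the control), and none was under the background limit in both groups. Of 12 mesenchymal markers, 10 were 2-fold lower on each (5.77 to 6.54, against 9.19), and Nes was under the limit in both groups. Xist gave 8.37, 9.31 and 9.22 in the MPN mice, against 3.30 in the control mouse, while the Y-linked Kdm5d was at 4.16, 4.16 and 4.14 against 7.72. The MPN and control arrays differed in sex-linked transcripts, and sex and group cannot be told apart. These values stand beside every difference below, and their part in it was not tested. In RNA from sorted pools, fewer cells of a type and less RNA per cell cannot be told apart.

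The members as a whole did not move one way. Their median difference was 0.15, beside 0.18 for all genes. All 3 MPN arrays lay below the control for 21 members, which is 25.3% of them against a background of 21.1% of all genes. All 3 lay above it for 41 members, 49.4% against 46.8%. At least 2-fold lower on each MPN array were 8 members, 9.64% against 5.78% of all genes, and 1 was 2-fold higher on each, 1.2% against 1.13%. These shares include genes under the background limit in both groups, 45 of the members and 7974 of all genes. A 2-fold difference could hardly show in those. Above the limit in either group, 8 of 38 members (21.1%) were 2-fold lower on each MPN array, beside 1120 of 11964 genes. By the same measure 1 of the 38 (2.63%) was higher, beside 221 of the 11964 genes. The median difference of the 38 was -0.16, beside 0.0785 for the genes above the limit. All 3 MPN arrays lay below the control for 47.4% of the 38 and above it for 34.2%. The matching shares of the 11964 genes are not given here. Whether the members differ from other genes in these counts was not tested. The 8 lower members were Mmp13, Adamts1, Timp1, Mmp14, Mmp16, Mmp2, Timp3 and Adam12, and the higher member was Mmp8. With limma, 0 members passed an adjusted p of 0.05, as did 0.0% of all genes. At an unadjusted p under 0.05, 2 members were higher (3.97% of all genes were) and 10 were lower (8.63% of all genes were). The fit takes its spread from the 3 MPN arrays and assumes that the lone control varies like them. After cyclic loess 1 member passed, Adamts1 (adjusted p = 0.048), and after shifting the arrays to one receptor gene median 3 passed, Adamts1 (0.046), Mmp16 (0.0482) and Mmp2 (0.0477), each of them lower.

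**Figure D1:**
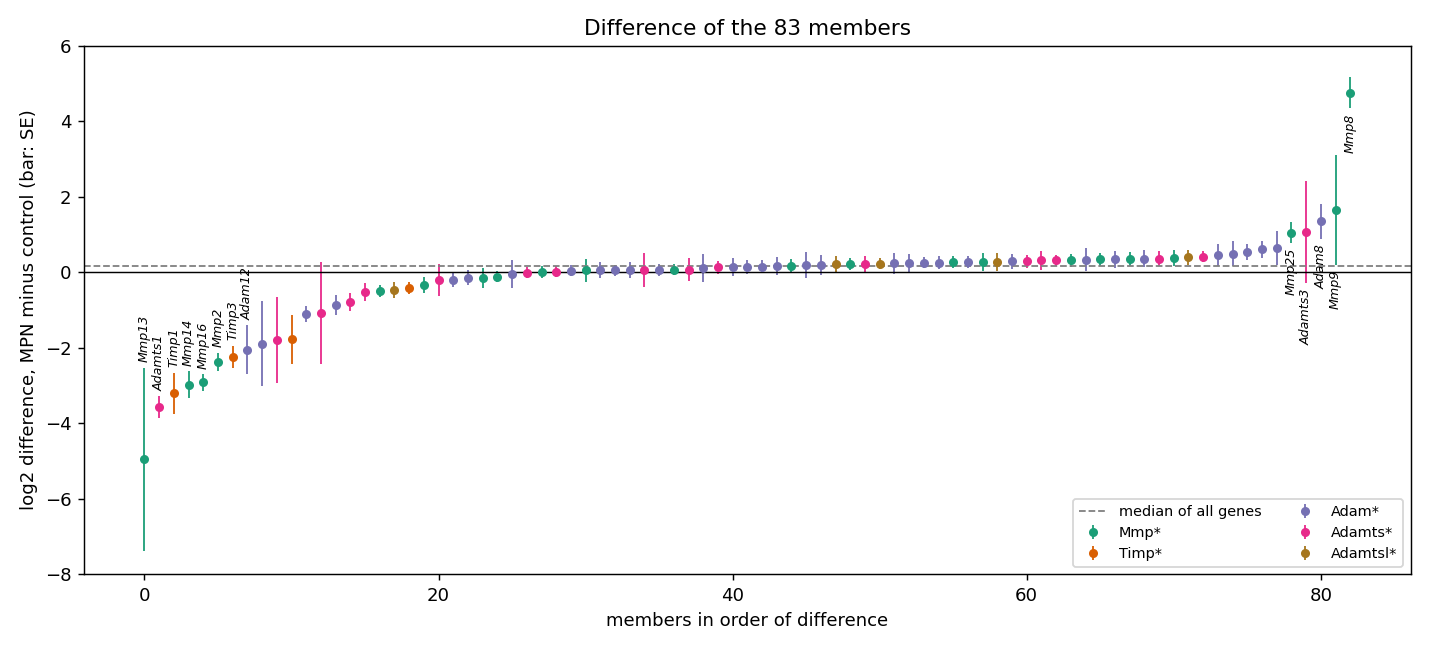
The log2 difference, MPN minus control, of each of the 83 members in rising order, coloured by family, with the standard error of the fit as a bar and the median of all genes (0.18) as a dashed line. Most members lie near that line, Mmp13 lies at -4.96 with a wide bar, and Mmp8 stands alone at 4.77.

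The 4 members known from neutrophils were higher in MPN on average, and Mmp8 by far the most. Mmp8, the collagenase of neutrophil granules, was at 10.77, 10.19 and 11.04 in the MPN mice, against 5.90 in the control mouse. The 3 MPN arrays lay close together and far from the control, a difference of 4.77 (SE 0.41) or 27.2-fold, with adjusted p = 0.0918. Without any 1 MPN mouse and under the other settings, the smallest difference of Mmp8 was 4.51, after the receptor gene shift. Adam8, a leukocyte ADAM that sheds adhesion molecules, was at 7.14, 6.28 and 7.15 in the MPN mice, against 5.51 in the control mouse. All 3 lay above the control, by 1.35 on average (SE 0.47, adjusted p = 0.406).

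Mmp9, the gelatinase of neutrophil granules that osteoclasts also make, was spread over a wide range. It was at 7.21, 5.50 and 8.77 in the MPN mice, against 5.50 in the control mouse. MPN mouse 2 held exactly the control's value and MPN mouse 3 was far above it, so the difference of 1.66 (SE 1.46) was within the spread of the MPN mice. Cxcr2, a chemokine receptor of mature neutrophils, was likewise at 9.78, 4.20 and 9.46 in the MPN mice, against 3.84. Most neutrophil markers did not share this pattern, since 11 of the 13 were 2-fold higher on each MPN array, mouse 2 included. Mmp25, a protease anchored in the neutrophil membrane, was at 5.98, 5.49 and 5.86 in the MPN mice, against 4.72, which is under the background limit. It was at least 1.48-fold higher in MPN when the control is set to that limit (adjusted p = 0.3). MPN mouse 2 was the lowest of the MPN arrays for all 4 genes, as for 21.2% of all genes, and also for 11 of the 13 neutrophil markers. Without MPN mouse 2, all 4 were 2-fold higher on each remaining array by their measured values, as were 1.87% of all genes. Mmp25 was not when its control is set to the background limit.

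Most stromal members were lower in MPN. The list of genes known from fibroblasts and osteoblasts held 17 measured members with a median difference of -1.79, and the neutrophil list had a median of 1.50. Of the 17, 14 (82.4%) lay below the control on all 3 MPN arrays, against 21.1% of all genes. By 2-fold on each it was 8 (47.1%), against 5.78% of all genes. Adam33 alone lay above the control on all 3, as did 46.8% of all genes. Both lists were drawn up from textbook roles with earlier results of these data known, so their direction is no independent evidence. The other 62 members, in neither list, had a median of 0.21. By the probe sets kept, 0 of them were 2-fold apart on each MPN array, but 43 were under the background limit in both groups. A 2-fold difference could hardly show in those 43, so this count is no fair contrast to the lists.

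**Figure D2:**
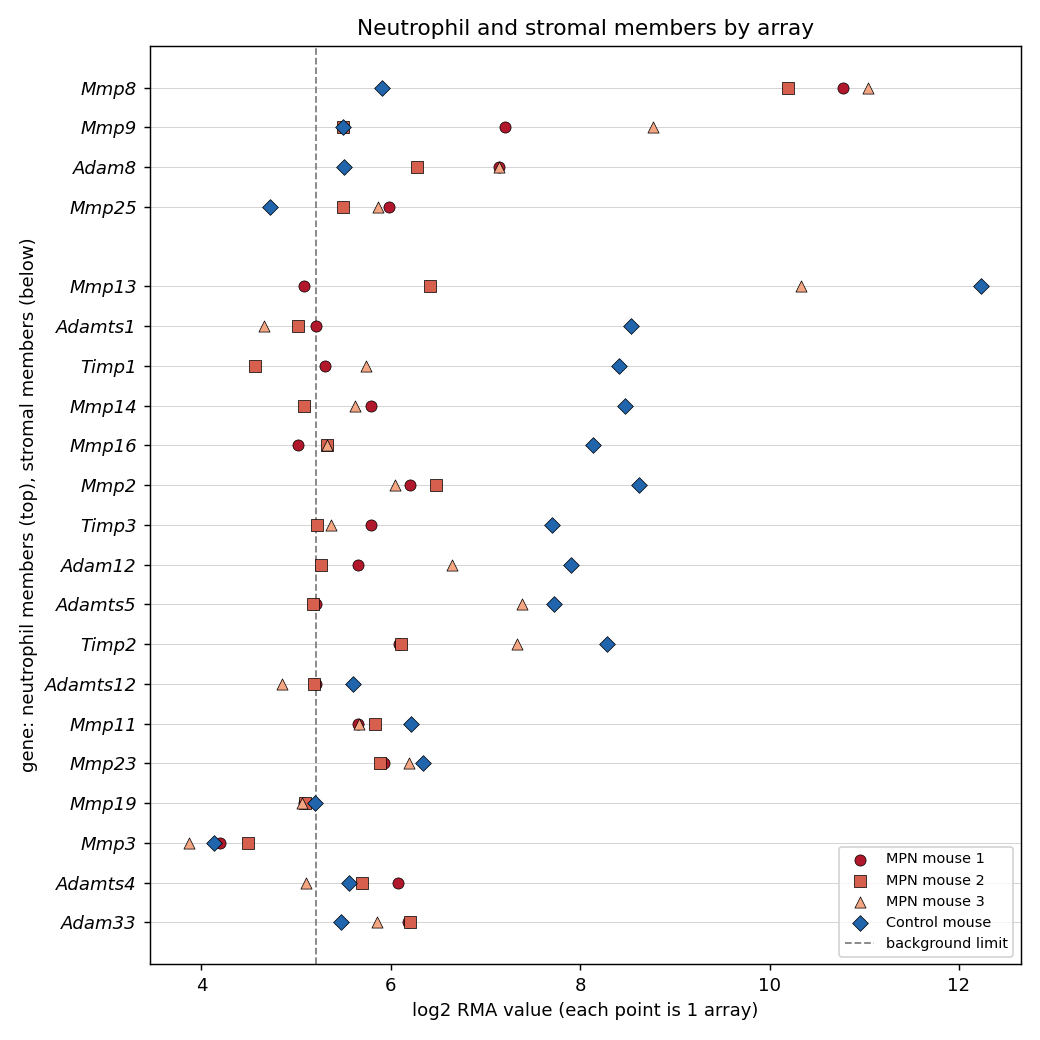
Log2 values of the 4 neutrophil members (top) and the 17 stromal members (below), with 1 point for each array (red MPN, blue control) and the background limit of 5.21 as a dashed line. The control lies right of all MPN points for Mmp13 through Mmp19 and left of them for Mmp8, Adam8, Mmp25 and Adam33.

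Both ends of the ranking were collagenases of one gene cluster. Mmp13, the collagenase of osteoblasts and of cartilage, was at 5.08, 6.41 and 10.33 in the MPN mice, against 12.23 in the control mouse. The 3 MPN arrays lay below the control but far apart, from under the background limit in MPN mouse 1 to a strong signal in MPN mouse 3. The difference was -4.96 with an SE of 2.42 (adjusted p = 0.454), and without MPN mouse 3 it was -6.48. Mmp13 and Mmp8 lie with 8 other MMP genes on chromosome 9, in the RefSeq order Mmp13, Mmp12, Mmp1b, Mmp3, Mmp1a, Mmp10, Mmp8, Mmp27, Mmp20 and Mmp7. No other protein-coding gene lies between them in that annotation, and 5 MMP genes separate Mmp13 from Mmp8. The other 8 were under the background limit in both groups, with differences from -0.14 for Mmp12, the macrophage elastase, to 0.39 for Mmp10, a stromelysin. Mmp3, the other stromelysin, was at 4.20, 4.49 and 3.87 in the MPN mice, against 4.14. Of the enzymes found mostly in epithelia or teeth, Mmp7 (matrilysin) differed by 0.32 and Mmp20 (enamelysin) by 0.22. The collagenases Mmp1a and Mmp1b differed by 0.07 and 0.28, and Mmp27 by 0.01. Only Mmp13 and Mmp8 of the 10 gave a signal above the limit.

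**Figure D3:**
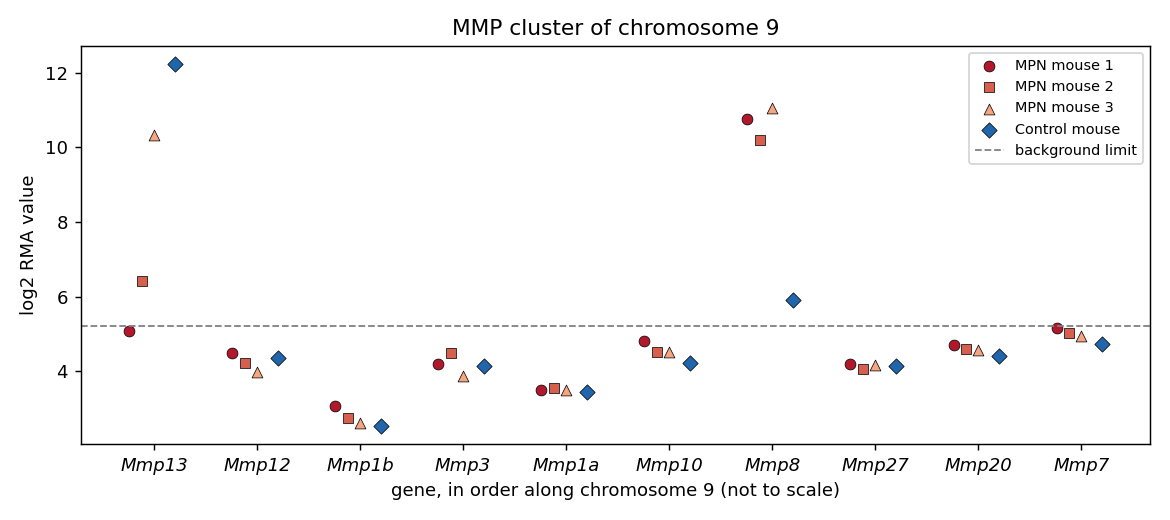
Log2 values of the 10 MMP genes of the chromosome 9 cluster in their order along the chromosome, with the MPN arrays in red left of the control in blue and the background limit dashed. Mmp13 has its highest point in the control (12.23), Mmp8 has its 3 MPN points above 10, and the other 8 genes stay under the limit.

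The 250 bases before the RefSeq start of these 2 collagenases are shown because the genes lie at opposite ends of the ranking. Those of Adamts1 are shown because it had the largest difference among the lower members after Mmp13. They were taken from RefSeq's promoter table of build GRCm38.p6, in which 52 of the 83 members had an entry. Capitals mark matches, on either strand, to TGAGTCA (the AP-1 site), TTNNGNAA (the C/EBP site), TGTGGT (the Runx site) and TATAAA (the TATA box), and no printed match overlaps another. The windows are chr9:7272264-7272513 (plus strand) for Mmp13, chr9:7558179-7558428 (plus strand) for Mmp8 and chr16:85803114-85803363 (minus strand) for Adamts1.
Mmp13: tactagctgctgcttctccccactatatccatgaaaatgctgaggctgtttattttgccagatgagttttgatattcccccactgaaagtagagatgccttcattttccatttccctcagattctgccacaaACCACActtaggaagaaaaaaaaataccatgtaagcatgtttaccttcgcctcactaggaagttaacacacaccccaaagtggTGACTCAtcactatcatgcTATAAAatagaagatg
Mmp8: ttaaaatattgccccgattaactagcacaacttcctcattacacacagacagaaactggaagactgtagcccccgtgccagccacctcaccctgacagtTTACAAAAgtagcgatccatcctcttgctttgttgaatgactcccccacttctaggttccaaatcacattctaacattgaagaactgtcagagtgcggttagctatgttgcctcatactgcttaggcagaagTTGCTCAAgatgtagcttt
Adamts1: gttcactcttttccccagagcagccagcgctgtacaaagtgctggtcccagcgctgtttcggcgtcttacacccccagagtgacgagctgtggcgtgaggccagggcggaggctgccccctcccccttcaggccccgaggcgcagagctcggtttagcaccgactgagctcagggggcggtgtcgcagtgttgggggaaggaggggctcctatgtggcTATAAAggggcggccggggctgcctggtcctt

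In Mmp13 the AP-1 match TGACTCA lies at -35 to -29 from the start and the Runx match ACCACA at -118 to -113. Mmp8 holds 2 C/EBP matches, TTACAAAA and TTGCTCAA, and no AP-1 or Runx match. Windows of this length held an AP-1 match in 4.46%, a C/EBP match in 36.8%, a Runx match in 14% and a TATA box in 12.4% of the 32851 RefSeq promoters. Of the 5 lower members with an entry, only Mmp13 held the AP-1 letters, Mmp13 and Mmp14 the Runx letters, and Timp1 the C/EBP letters. Of the 3 neutrophil members with an entry, Mmp8 and Adam8 held the C/EBP letters. AP-1 and Runx2 are known activators of Mmp13 in bone cells, and C/EBP epsilon of granule genes in neutrophils. A match in these letters is not a bound site.

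Mmp14, Mmp2 and Mmp16 lay below the control on each MPN array, but the membrane-type MMPs as a list did not share one direction. Of 5 measured, 2 lay below the control on all 3 MPN arrays and 3 above it, with a median difference of 0.27. Of all genes, 21.1% lay below and 46.8% above. Mmp14, the membrane-type protease that activates the Mmp2 precursor, was at 5.80, 5.09 and 5.63 in the MPN mice, against 8.48 in the control mouse. Its difference of -2.97 (SE 0.36) is 7.86-fold lower, with adjusted p = 0.133. Mmp2, the gelatinase of fibroblasts, was at 6.21, 6.47 and 6.05 in the MPN mice, against 8.62. The MPN arrays lay close together above the background limit, 5.19-fold below the control (difference -2.37, SE 0.24, adjusted p = 0.108). Mmp16, another membrane-type protease, was at 5.02, 5.32 and 5.33 in the MPN mice, against 8.14, a difference of -2.92 (SE 0.21, adjusted p = 0.0871). Of the 2 gelatinases, Mmp2 was below its control on each MPN array, whereas Mmp9 was at or above its control. The 3 membrane-type genes above the control were the neutrophil member Mmp25, described above, and Mmp17 and Mmp24. Mmp17 and Mmp24 differed by only 0.27 and 0.35, close to the background limit. Their MPN means were 5.50 and 5.72, against 5.23 and 5.36 in the control. Mmp15 was not analysed here. Mmp11, a stromelysin of fibroblasts, was at 5.66, 5.83 and 5.67 in the MPN mice, against 6.21. Mmp23 differed by -0.34 and Mmp19 by -0.12.

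All 4 TIMP genes lay below the control on each MPN array, as did 21.1% of all genes, with a median difference of -2.01. Timp1, a soluble inhibitor of most MMPs that lies on the X chromosome, was at 5.31, 4.56 and 5.74 in the MPN mice, against 8.41 in the control mouse. Its MPN mean was just under the background limit, so it was at least 9.23-fold lower (SE of the log2 difference 0.55, adjusted p = 0.184). Timp3, which binds the matrix and also inhibits ADAM17, was at 5.80, 5.22 and 5.37 in the MPN mice, against 7.71. That is 4.73-fold lower, with adjusted p = 0.144. Timp2, the partner of Mmp14 in the activation of Mmp2, was at 6.08, 6.11 and 7.33 in the MPN mice, against 8.28. MPN mouse 3 lay between the other MPN mice and the control, so Timp2 missed a 2-fold difference on that array. Timp4, found mostly in heart and fat, was at 5.37, 5.31 and 5.20 in the MPN mice, against 5.70. A ratio of protease to inhibitor activity was not measured.

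Among the ADAM genes, few were above background and the mesenchymal Adam12 had the largest difference. Adam12, which is expressed in mesenchymal cells that form muscle and bone, was at 5.66, 5.26 and 6.65 in the MPN mice, against 7.91 in the control mouse (difference -2.05, SE 0.65, adjusted p = 0.381). Adam10, the sheddase of Notch and many adhesion molecules, was at 5.26, 5.93 and 7.69 in the MPN mice, against 8.19. MPN mouse 3 was near the control and the other MPN mice were at least 2-fold lower, and the difference of -1.89 had an SE of 1.12. Adam17, the enzyme that releases tumour necrosis factor, varied less, at 5.94, 6.12 and 6.29 in the MPN mice, against 7.22. Its difference was -1.10 (SE 0.21, adjusted p = 0.22). Adam9, another broadly expressed sheddase, was at 6.12, 5.86 and 5.63 in the MPN mice, against 6.73. Adam15 went the other way, at 6.46, 6.47 and 6.17 in the MPN mice, against 5.83. Adam33, listed as stromal, was at 6.18, 6.20 and 5.85 in the MPN mice, against 5.47, a difference of 0.61 (SE 0.23, adjusted p = 0.418). Adam19 differed by 0.12 and the lymphocyte gene Adam28 by 0.15, and Adam28 was under the background limit in both groups. Adam11, a catalytically inactive ADAM of the nervous system, was at 5.45, 5.97 and 5.01 in the MPN mice, against 4.83. All 21 ADAM genes of the germ line list were under the background limit in both groups, with a median difference of 0.20, close to that of all genes. They included Adam3 (0.49), a sperm protein, and Adam6a (0.46), a gene needed for fertility that lies within the immunoglobulin heavy chain locus.

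By the probe sets kept, Adamts1 was the most sharply separated of the ADAMTS genes. A probe set of Adamts9 that was not kept differed more, by -5.36. Adamts1, a protease of versican and aggrecan, was at 5.21, 5.02 and 4.67 in the MPN mice, against 8.54 in the control mouse. Its MPN mean was under the background limit, so it was at least 10.1-fold lower. The log2 difference of Adamts1 was -3.57 (SE 0.29, adjusted p = 0.0871). Adamts5, the main aggrecan-cutting enzyme of mouse cartilage, was at 5.21, 5.18 and 7.39 in the MPN mice, against 7.72. MPN mouse 3 again lay near the control, and the difference was -1.79 (SE 1.13). Adamts4, a related enzyme, was at 6.08, 5.69 and 5.11 in the MPN mice, against 5.56, with the control inside the range of the MPN mice. Adamts12 differed by -0.52 and Adamts10, which acts on fibrillin microfibrils, by -0.79. Adamts20, a protease needed for pigment cell migration in the mouse, differed by 0.42 and was under the background limit in both groups. Of the ADAMTS-like genes, which lack a protease domain, all differences lay between -0.46 for Adamtsl3 and 0.40. Adamts2 was not analysed here.

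For 2 ADAMTS genes the probe sets disagreed, and the one kept differed from most of the others. Adamts9, a protease of proteoglycans, had 6 probe sets. The kept one was at 5.90, 5.93 and 8.53 in the MPN mice, against 7.86 in the control mouse, so that MPN mouse 3 lay above the control. The other 5 had lower means in MPN as well, and 4 of the 6 were at least 2-fold lower on each MPN array. The largest difference was -5.36, with 4.50, 4.53 and 4.61 in the MPN mice, against 9.90. With the mean of all 6, Adamts9 differed by -2.38 and joined the members 2-fold lower on each MPN array. Adamts3, an enzyme that removes the propeptide of procollagen and activates the lymphatic growth factor VEGF-C, had 16 probe sets. The kept one was at 6.76, 9.07 and 6.22 in the MPN mice, against 6.28. In 4 of the 16, which have successive identifiers, MPN mouse 2 was at least 2-fold above the mean of the other arrays. The most extreme was at 4.10, 9.13 and 4.19 in the MPN mice, against 4.07. In the other 12, MPN mouse 2 did not stand apart in this way. Of the 83 members, 79 had 1 probe set, for which no such comparison can be made.

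**Figure D4:**
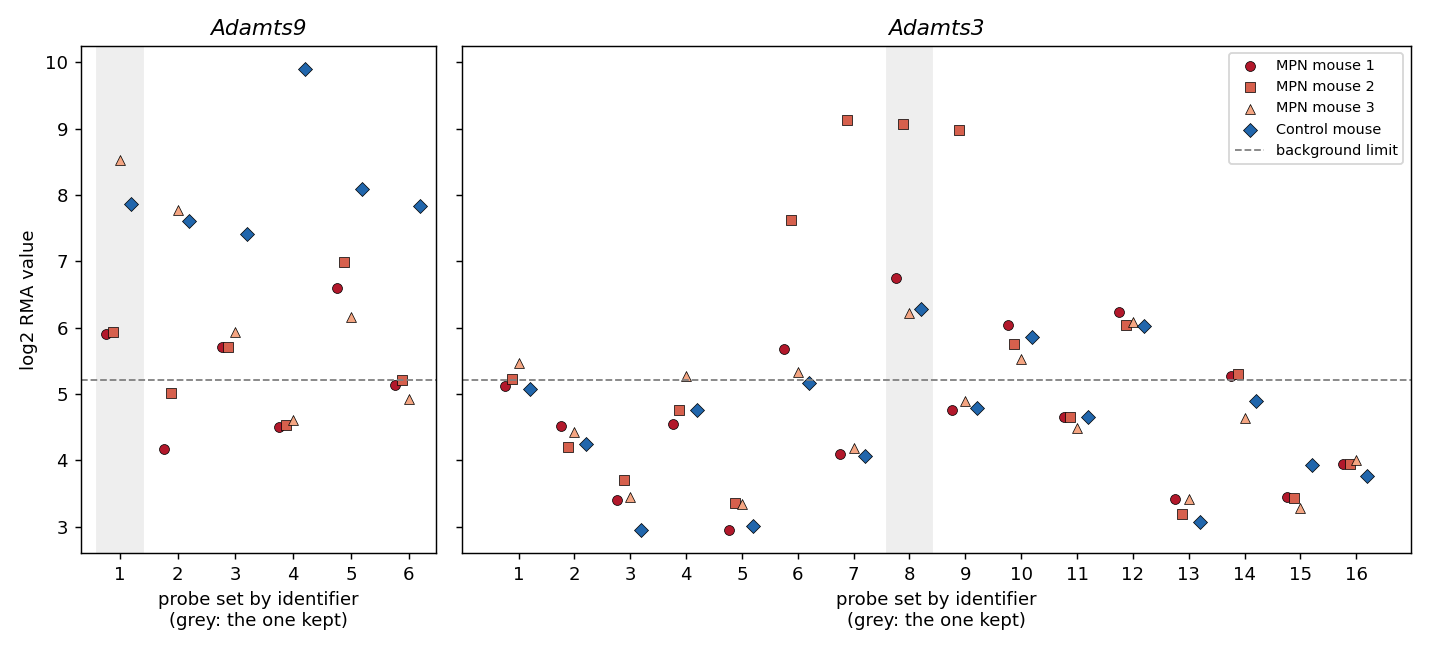
Log2 values of every probe set of Adamts9 (6, left) and Adamts3 (16, right), with the MPN arrays in red left of the control in blue, the background limit dashed and the kept probe set shaded. The control is the highest point in 4 of the 6 probe sets of Adamts9, and MPN mouse 2 stands out in the sixth to the ninth probe set of Adamts3.

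The MPN mice differed among themselves. The median over the 17 stromal members, each MPN mouse minus the control, was -2.20 in mouse 1, -2.17 in mouse 2 and -0.96 in mouse 3. For the 4 neutrophil members it was 1.68 in mouse 1, 0.77 in mouse 2 and 2.45 in mouse 3. MPN mouse 3 was the highest of the MPN arrays for 7 of the 17 stromal members and for 16 of all 83 members, against a background of 20.6% of genes. Mmp13, Adam10, Adamts5 and Timp2 had their highest MPN value there, whereas Mmp14, Mmp2, Adamts1 and Timp3 did not. Without MPN mouse 3, 13 members (15.7%) were 2-fold lower on each array, with Adam10, Adamts5, Timp2, Adam17 and Adamts9 added to the 8. The share of all genes was also higher without that mouse, at 8.81%, beside 5.78% with it. Mesenchymal markers gave another order, with medians of -2.64, -3.44 and -3.30 in MPN mice 1, 2 and 3. Macrophage markers had medians near that of all genes, at 0.19, 0.15 and 0.18. Of these 10, 5 were under the background limit in both groups, and Vcam1 differed by -3.74. Endothelial markers had medians of 0.44, 0.48 and 0.24. Of these 8, 7 lay above the control on all 3 MPN arrays, as did 46.8% of all genes. In the control mouse 0 of the 8 were above the background limit, and in MPN 5 were. Of all 19938 genes, 10209 were above it in the control and 10846 in MPN. The 5 endothelial genes were only just above the limit of 5.21, with MPN means from 5.31 for Tie1 to 5.57 for Pecam1.

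**Figure D5:**
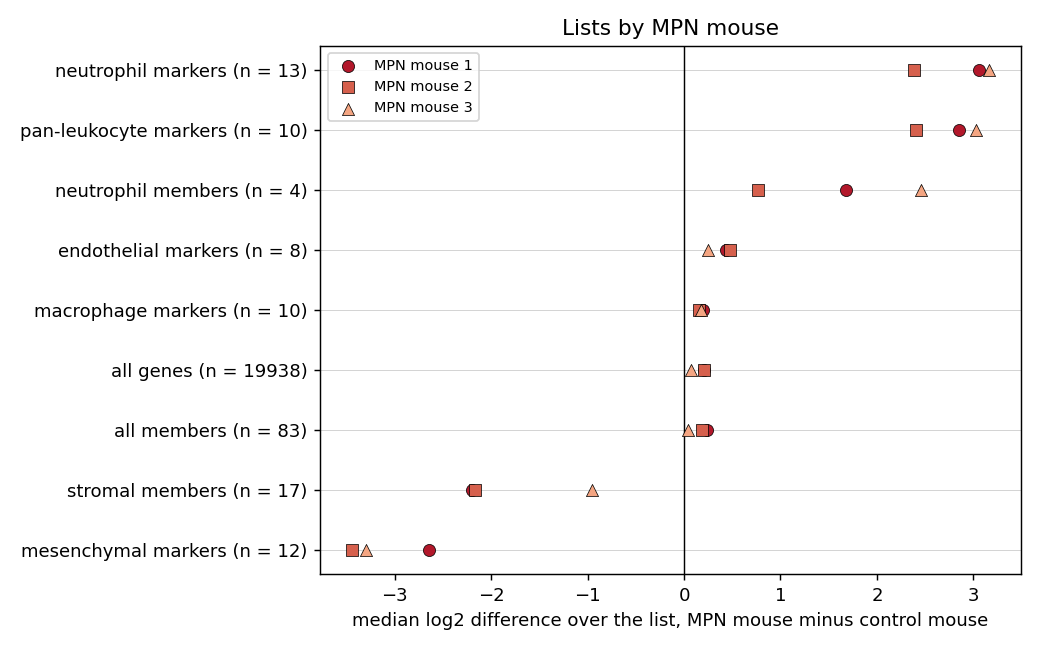
The median log2 difference of each MPN mouse from the control mouse over 9 gene lists, with the number of measured genes. Stromal members lie at -2.20, -2.17 and -0.96, all 83 members lie near 0 with all genes, and neutrophil members lie between 0.77 and 2.45.

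Genes that act on or beside the metalloproteinases differed in both directions. Of 23 measured regulators and activators, 5 (21.7%) were 2-fold higher on each MPN array and 1 (4.35%) lower. Of all genes, 1.13% were higher and 5.78% lower. With limma, 0 of the 23 passed the adjusted threshold. Lcn2 and Elane of this list are also among the neutrophil markers above, so the 2 results overlap. The granule proteases Elane, neutrophil elastase, and Ctsg, cathepsin G, which can activate MMP precursors, differed by 2.48 (SE 0.21) and 3.04 (SE 0.44). Lcn2, which forms a complex with Mmp9, was at 10.98, 9.78 and 11.37 in the MPN mice, against 6.49 in the control mouse. MPN mouse 2 was the lowest of the MPN arrays for both, as for 21.2% of all genes. In that mouse Lcn2 was still far above its control, whereas Mmp9 held the control's value. Plaur, the receptor of the plasminogen activator urokinase, differed by 2.60 (SE 0.56). Of 17 measured substrates, 6 (35.3%) were 2-fold lower and 1 (5.88%) higher on each array. Among the lower ones, Kitl, Col1a1, Col1a2 and Cxcl12 are also mesenchymal markers counted above. Kitl, the stem cell factor that proteases release from stromal cells, was at 4.40, 3.71 and 4.21 in the MPN mice, against 10.00. Vcam1, Col1a2 and Csf1, an adhesion molecule, a collagen chain and a growth factor of macrophages, differed by -3.74 (SE 1.06), -3.30 (SE 0.41) and -2.84 (SE 1.42). Of 15 measured transcription factors known to act on MMP genes, 0 were 2-fold apart on each MPN array in either direction, and the median was 0.02. Cebpe, the granule gene regulator, was at 6.17, 6.60 and 8.92 in the MPN mice, against 5.87. It was highest in MPN mouse 3, as were Mmp9, 8 of the 15 factors and 20.6% of all genes. Its lowest MPN value was in mouse 1, whereas that of Mmp9 was in mouse 2. A link between them was not tested. Spi1, a regulator of myeloid cells, differed by 1.44 (SE 0.85) and the AP-1 subunits Fosl2 and Fosb by 1.41 (SE 0.53) and -1.20 (SE 0.37). Runx2 was not analysed here.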

How the data were processed

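Gene expression was measured on Affymetrix mouse gene arrays from 3 MPN mice and 1 control mouse, each array taken as 1 mouse as titled. A Picopure kit was used for the RNA, which was amplified with the NuGEN Ovation system, per the labels. The deposited log2 values were made by the authors with RMA, per the submitters' processing notes. RMA corrects background, gives the arrays one distribution and summarises probes, which compresses differences near background. No source used here gives its version or a genome build of the probe sets.

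Of 35556 probe sets, 21789 have 1 symbol in the platform table, 1621 have several and 12146 are unnamed here. Those with 1 symbol gave 19938 genes. By gene identifier, 21698 of these probe sets matched RefSeq and 0 symbols changed. MPN and control were set against each other in R 4.3.3 by limma 3.58.1 (lmFit, eBayes, two-sided, Benjamini-Hochberg over all genes, threshold 0.05), with 2 residual and 1.39 prior degrees of freedom. SE is that of the fitted difference. The background limit is the 95th percentile of the receptor genes' means. A fold from a group with its mean under the limit is a lower bound, computed against the limit. Precision is limited by the number of arrays, since an array has no read depth. Only the fit was tested on simulated data. There the control array was given the spread of the MPN arrays, so that assumption was not tested.

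The members and lists were chosen with earlier results of these data known. Named genes are the neutrophil, stromal, collagenase, gelatinase, TIMP and chromosome 9 cluster members, the 6 largest differences in each direction among the other members, and up to 4 genes of each other list. Further genes are named where a list or a marker is described. The alternatives left out each MPN mouse, averaged probe sets, removed genes under the background limit, repeated quantile normalisation, ran cyclic loess, moved the arrays to a common median (of all probe sets, or of the receptor genes), or fitted a trend in the variance prior.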

Additional observations from a re-analysis of the deposited data

How the results depend on the processing

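Of 41 named members, 36 kept their direction in each alternative run on them. There were 10 alternatives, but 13 of the 41 were under the background limit and so had no value in the one that kept genes above it. The 5 that turned were all small and uncalled. Adamts4 was at -0.16 to 0.32 without 1 MPN mouse, -0.0909 after cyclic loess and -0.20 after the receptor gene shift. Mmp1a was at -0.00034 after quantile normalisation, -0.11 after cyclic loess and -0.19 after the receptor gene shift, and Mmp20 at -0.0345 after that shift. Mmp27 was at -0.0110 to 0.0552 without 1 MPN mouse, and -0.0501, -0.20 and -0.24 after quantile normalisation, cyclic loess and the receptor gene shift. Mmp3 was at -0.10 to 0.21 without 1 MPN mouse and -0.0122, -0.17 and -0.21 after the same 3 scalings. The median of all members was -0.16 among genes above background, -0.0469 after cyclic loess and -0.11 after the receptor gene shift, where the median of all genes was 0.0785, 0.0121 and -0.0778. The genes past the adjusted threshold numbered 97 after cyclic loess and 153 after the receptor gene shift, with 1 and 3 members among them. Leaving out 1 MPN mouse gave 8 to 13 members 2-fold lower and 1 to 4 members 2-fold higher, and 1312 to 1756 genes lower and 373 to 378 higher. The median of the stromal members ran from -2.20 to -1.56 and that of the neutrophil members from 1.11 to 2.06 over those fits. The cause of these changes was not tested. No paired analysis was possible because only 1 control mouse exists and its label carries no number.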

Other observations

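In 8 of the 83 members (9.64%) at least 2 arrays held values equal to all 5 deposited decimals, and this was so for 12.7% of all genes. They were Adam5, Adamts14, Adam34l, Adam25, Mmp1a, Adam19, Mmp10 and Mmp9. For Mmp9 the equal pair was MPN mouse 2 and the control mouse, at 5.50 each, and for Adam19 it was MPN mouse 3 and the control mouse, at 5.23 each.

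Jak2, the gene mutated in the transplanted cells, gave 6.42, 4.56 and 8.14 in MPN mice 1, 2 and 3, against 8.06 in the control mouse. MPN mouse 3 held the highest MPN value of Jak2, as it did of Mmp13, Mmp9, Adam10, Adamts5 and Timp2, genes chosen after their values were seen.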
